A study of Homo sapiens with 8 samples.

Results

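Fibroblast growth factor (FGF) signalling was followed in NTera2/D1, a line of human embryonal carcinoma cells, through the genes for its ligands, its receptors and the inhibitors that the pathway itself induces. The genes were chosen by symbol and not by their values: FGF1 to FGF14, FGF16 to FGF23, FGFR1 to FGFR4, FGFRL1, KL, KLB, SPRY1, SPRY2, SPRY4, SPRED1, SPRED2, DUSP4, DUSP6 and IL17RD. Of these 37 genes 36 were measured, out of 18732 genes tested, and FGF16 was not analysed here. They comprised 17 secreted ligands, 4 FGF homologous factors, 7 receptor and co-receptor genes and 8 feedback genes.

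Secreted FGFs bind receptor tyrosine kinases together with heparan sulfate or a Klotho protein, and the receptors signal through the adaptor FRS2 to RAS and the ERK kinases. Active ERK raises the transcription of Sprouty genes, DUSP6 and IL17RD, whose products dampen the same pathway, so that these genes are widely read as its output. FGF2 is a self-renewal factor of human pluripotent cells, and FGF4 is a classical target of POU5F1 and SOX2 in embryonal carcinoma cells.

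The cells carried a small interfering RNA against RNF20 (siRNF20), the E3 ligase that ubiquitylates histone H2B, or against the bacterial gene LacZ (siLacZ), so that every group was transfected. They were then given retinoic acid (RA), which drives this line out of its stem-cell-like state, at 10 µM, or the solvent DMSO, and the labels give 72 h for the RA treatment. The groups were RA siRNF20, RA siLacZ, DMSO siRNF20 and DMSO siLacZ, each with 2 arrays, numbered GF117 and GF120 and described as biological duplicates of 1 cell line. The labels do not say whether the numbers mark separate cultures or days, so that p-values measure the spread between these arrays. With so few arrays precision is limited.

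The GF117 RA siLacZ array stood apart. Its gene values correlated at r = 0.0780 to 0.185 with those of the other arrays, against 0.908 to 0.974 among the other 7, and its value for RNF20 was 6.08, within the range of the siRNF20 arrays. The fit therefore used 7 arrays, with GF120 alone in the RA siLacZ group and assumed to vary like the others. With all 8 arrays 0 genes passed in any of the 5 comparisons by limma, the median difference of all genes with RA in siLacZ cells moved to -0.49 on the log2 scale, and 1510 genes had an unadjusted p below 0.05 in that comparison. On the 7 arrays RNF20 stood at 5.89 to 6.48 (log2 intensity) with siRNF20 and at 8.10 to 8.24 with siLacZ, a difference of -2.02 in RA (limma, adjusted p = 0.110) and -1.94 in DMSO (adjusted p = 0.237), which did not pass over all genes.

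Markers of the cell state moved with RA. Of 10 embryonal carcinoma markers 6 fell in siRNF20 cells and 6 in siLacZ cells, NANOG with log2 differences of -2.76 and -3.82. Of the 10, 2 read above 0 in siRNF20 cells and 1 in siLacZ cells. Of all genes 2.13% and 2.03% were called lower in siRNF20 and siLacZ cells, and 1.79% and 1.88% higher. The summed intensity of the embryonal carcinoma list was 5834 to 8217 in RA arrays, against 10469 to 11178 in DMSO arrays. All 5 measured RA response markers rose in both comparisons, among them CYP26A1 by 4.77 and 4.59. Of 6 neural markers 4 rose in siRNF20 cells and 3 in siLacZ cells, with sums of 1563 to 1745 in RA arrays and 713 to 879 in DMSO arrays. Of 7 mesoderm and endoderm markers and 5 trophoblast markers 0 passed in either comparison. Of all genes 3.92% and 3.91% passed, so that 0 of 7 and 0 of 5 are near the background share. The sums of these lists were 388 to 452 and 356 to 384 in RA arrays, against 396 to 495 and 384 to 477 in DMSO arrays. An array intensity has no true zero, so that no marker can be called absent. In these bulk samples fewer cells of a type and less RNA per cell cannot be told apart, and the part of the change in cell state in the results below was not tested.

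With RA the Sprouty genes, IL17RD, FGF2 and FGF4 fell with 1 or both siRNAs, and DUSP6 rose with both. Of 7 receptor genes 0 passed the test, which is near the background share. The question was which FGF genes RA changes with and without RNF20. In siRNF20 cells 6 of 36 genes passed at an adjusted p below 0.05 (limma, Benjamini-Hochberg over all genes), against 3.92% of all genes tested. In siLacZ cells 6 of 36 passed, against 3.91% of all genes. In each comparison 1 gene rose, DUSP6, against 1.79% of all genes in siRNF20 cells and 1.88% in siLacZ cells. As a count, 1 of 36 higher is near these shares. The other 5 fell, against 2.13% of all genes in siRNF20 cells and 2.03% in siLacZ cells: FGF2, SPRY2, SPRY4 and IL17RD in both, SPRY1 in siRNF20 cells and FGF4 in siLacZ cells. By class, 5 of 8 feedback genes passed in siRNF20 cells and 4 of 8 in siLacZ cells, 1 of 17 and 2 of 17 secreted ligands, 0 of 4 homologous factors and 0 of 7 receptor genes. Beside 3.92% and 3.91% of all genes, 0 of 4 and 0 of 7 are near the background share. The median log2 difference of the 36 genes was -0.05 in siRNF20 cells and -0.18 in siLacZ cells, beside -0.03 and -0.05 for all genes.

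**Figure D1:**
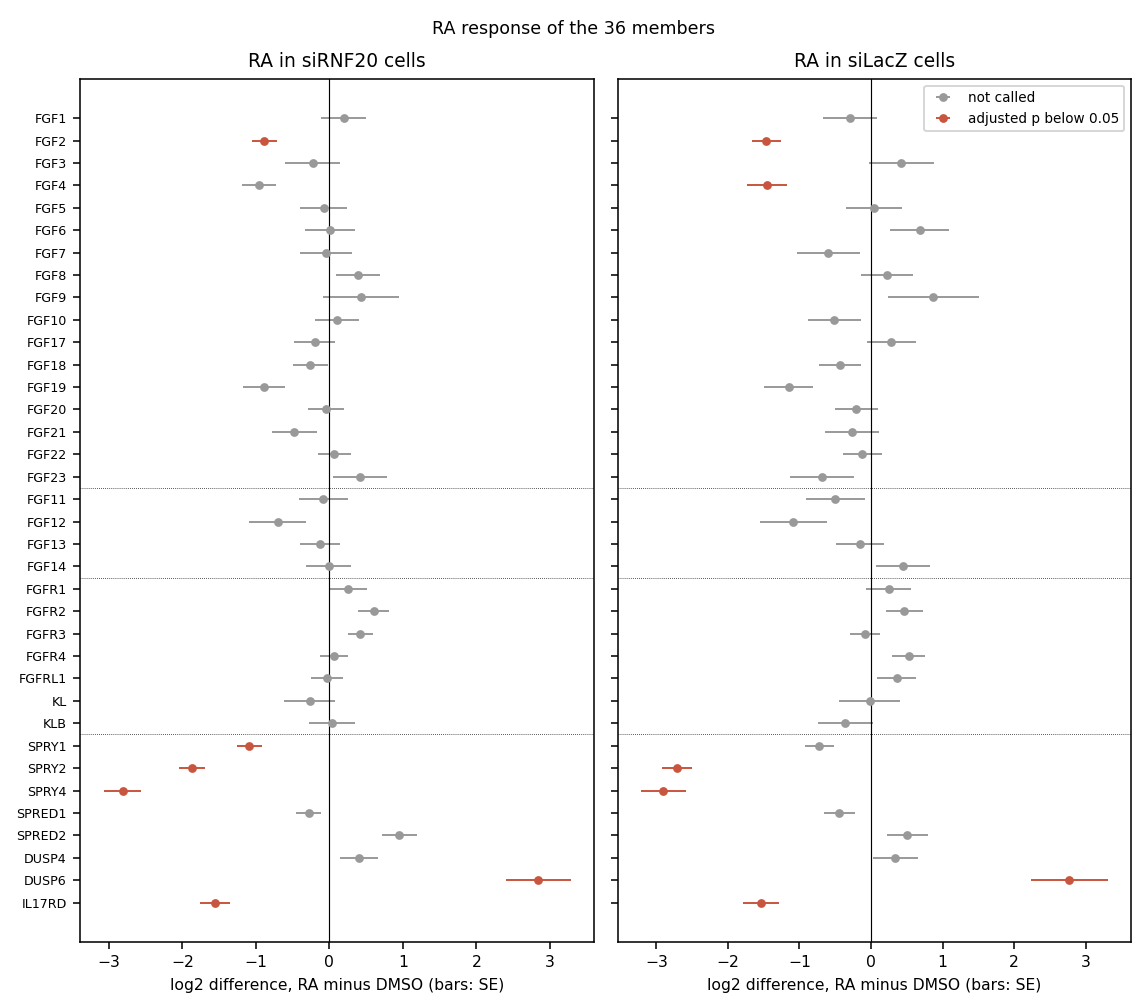
The log2 difference between RA and DMSO (horizontal axis) is drawn for each of the 36 genes in siRNF20 cells (left) and siLacZ cells (right), with bars of 1 SE from the limma fit of 7 arrays; genes with an adjusted p below 0.05 are in red and dotted lines part the classes. DUSP6 lies at 2.84 and 2.77, SPRY4 at -2.82 and -2.9002, and all receptor genes lie between -0.36 and 0.60.

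Read by single arrays, 3 genes had all 3 RA arrays above all 4 DMSO arrays, namely FGFR2, SPRED2 and DUSP6, which is 8.33% of the 36 genes beside 8.07% of all genes. A further 7 had all RA arrays below all DMSO arrays, which is 19.4% beside 12.6% of all genes. These were FGF2, FGF4, FGF19, SPRY1, SPRY2, SPRY4 and IL17RD. The first share was near the background, and whether the second differs from it was not tested. In the other 26 genes the RA and DMSO arrays overlapped.

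Among the secreted ligands FGF2 and FGF4 passed the test with RA. FGF2 had a log2 intensity of 8.72 and 8.73 in RA siRNF20 arrays and 8.10 in the RA siLacZ array, against 9.58 and 9.64 in DMSO siRNF20 arrays and 9.36 and 9.76 in DMSO siLacZ arrays. Every RA array was below every DMSO array, and the RA siLacZ array was the lowest. FGF2 fell by 0.89 on the log2 scale in siRNF20 cells (SE 0.17, adjusted p = 0.0173), a 1.85-fold change, and by 1.46 in siLacZ cells (SE 0.20, adjusted p = 0.00389), a 2.76-fold change. In siRNF20 cells FGF2 no longer passed when any 1 of the 4 arrays compared was left out: the adjusted p was 0.0503 or 0.0516 without the GF117 or GF120 array of RA siRNF20, and 0.110 or 0.124 without the GF117 or GF120 array of DMSO siRNF20. With no intensity trend it was 0.0819. The difference in siLacZ cells with all 8 arrays was -2.52 (adjusted p = 0.440).

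FGF4, which signals in an autocrine way in early embryonic cells, had 6.44 and 6.51 in RA siRNF20 arrays and 5.75 in the RA siLacZ array, against 7.36 and 7.52 in DMSO siRNF20 arrays and 6.92 and 7.49 in DMSO siLacZ arrays. The groups did not overlap. FGF4 fell by 1.45 on the log2 scale in siLacZ cells (SE 0.28, adjusted p = 0.0221), and its difference in siRNF20 cells was -0.96 (SE 0.23, adjusted p = 0.0547), which did not pass. In siLacZ cells FGF4 no longer passed once the GF120 array of DMSO siLacZ was left out (-1.17, adjusted p = 0.0982), with no filter on dim rows (-1.21, adjusted p = 0.161), with no intensity trend (adjusted p = 0.0509) and with all 8 arrays (-1.02, adjusted p = 0.440). In siRNF20 cells FGF4 passed once the GF117 or the GF120 array of DMSO siLacZ was left out (adjusted p = 0.0469 and 0.0491) and with the mean over rows (-0.80, adjusted p = 0.0329).

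FGF19, the endocrine ligand of bile acid control, was singled out after its values were seen, because its RA and DMSO arrays did not overlap. It had 5.59 and 5.89 in RA siRNF20 arrays and 5.14 in the RA siLacZ array, against 6.64 and 6.62 in DMSO siRNF20 arrays and 6.70 and 5.89 in DMSO siLacZ arrays, so that the highest RA array and the lowest DMSO array read nearly the same. Its difference was -0.89 in siRNF20 cells (adjusted p = 0.142) and -1.15 in siLacZ cells (adjusted p = 0.118), neither of which passed. The mean over rows called FGF19 lower in siRNF20 cells (-1.61, adjusted p = 0.00469) and in siLacZ cells (-1.45, adjusted p = 0.0206), as did the stricter filter on dim rows (adjusted p = 0.0467 and 0.0424). In siLacZ cells FGF19 also passed once the GF120 array of DMSO siLacZ was left out (-1.54, adjusted p = 0.04997).

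The other 14 secreted ligands did not pass in either comparison. FGF8, a morphogen of the early embryo, had 5.54 and 5.68 in RA siRNF20 arrays and 5.66 in the RA siLacZ array, against 5.63 and 4.82 in DMSO siRNF20 arrays and 5.38 and 5.49 in DMSO siLacZ arrays. Its difference was 0.39 in siRNF20 cells (SE 0.30, adjusted p = 0.643) and 0.22 in siLacZ cells (SE 0.36, adjusted p = 0.847), and the arrays of the groups overlapped. Its relatives FGF17 and FGF18 differed by -0.20 and -0.26 in siRNF20 cells and by 0.28 and -0.43 in siLacZ cells.

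FGF9 and FGF6 had the highest differences of a ligand with RA in siLacZ cells, 0.87 (SE 0.63, adjusted p = 0.582) and 0.68 (SE 0.41, adjusted p = 0.483). For FGF9, known for its role in gonad and lung development, the values were 5.52 and 5.31 in RA siRNF20 arrays and 5.09 in the RA siLacZ array, against 5.55 and 4.44 in DMSO siRNF20 arrays and 3.43 and 5.001 in DMSO siLacZ arrays. For FGF6, a ligand of muscle, they were 6.10 and 6.98 in RA siRNF20 arrays and 6.62 in the RA siLacZ array, against 6.82 and 6.25 in DMSO siRNF20 arrays and 6.22 and 5.66 in DMSO siLacZ arrays. The GF117 DMSO siLacZ array had the lowest FGF9 value, and within GF120 alone the difference in siLacZ cells was 0.084.

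FGF7 and FGF10, ligands that mesenchyme sends to epithelium, and FGF22 and FGF3 of the same subfamily differed by -0.23 to 0.10 in siRNF20 cells and by -0.60 to 0.43 in siLacZ cells. The endocrine ligands FGF21 and FGF23, of liver and bone, differed by -0.48 and 0.41 in siRNF20 cells and by -0.26 and -0.69 in siLacZ cells. FGF1, FGF5 and FGF20 differed by 0.19, -0.08 and -0.05 in siRNF20 cells and by -0.29, 0.04 and -0.20 in siLacZ cells.

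Many ligand genes were dim. A row is a probe set of the array, and only rows with a mean log2 intensity over the arrays above 3.97, that of the median row, were used. FGF7 kept 3 of 15 rows, FGF9 3 of 10, FGF1 7 of 20 and FGF10 3 of 6, whereas FGF2 kept 11 of 11 and FGFR3 27 of 27. A row that is bright in 1 group alone can pass this filter, so that the ligands that passed are not a set of expressed ligands. The direction of FGF8 and FGF6 with RA in siLacZ cells turned with the filter, to -0.50 and -0.10 with no filter on dim rows.

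The homologous factors FGF11 to FGF14 stay inside the cell, where they bind voltage-gated sodium channels, and are not known as receptor ligands. None of the 4 passed, which is near the share of all genes, 3.92% in siRNF20 cells and 3.91% in siLacZ cells. Their differences with RA ran from -0.70 (FGF12) to -0.01 (FGF14) in siRNF20 cells and from -1.09 (FGF12) to 0.45 (FGF14) in siLacZ cells. FGF12 had 6.11 and 5.36 in RA siRNF20 arrays and 5.42 in the RA siLacZ array, against 6.72 and 6.15 in DMSO siRNF20 arrays and 7.04 and 5.97 in DMSO siLacZ arrays. In every group with both numbers its GF117 array was the higher one.

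None of the 7 receptor genes passed with RA, which is near the share of all genes, 3.92% in siRNF20 cells and 3.91% in siLacZ cells. FGFR1, the receptor most tied to FGF2 in pluripotent cells, had 8.15 and 8.58 in RA siRNF20 arrays and 8.42 in the RA siLacZ array, against 7.85 and 8.37 in DMSO siRNF20 arrays and 7.90 and 8.44 in DMSO siLacZ arrays. The GF120 array was above the GF117 array in each group with both, by more than RA and DMSO differed. Its difference was 0.26 in siRNF20 cells (95% interval -0.31 to 0.83, adjusted p = 0.749) and 0.25 in siLacZ cells (-0.45 to 0.95, adjusted p = 0.787), and within GF120 alone it was 0.21 and -0.02.

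FGFR2, a receptor whose splice forms part epithelium from mesenchyme, had 8.95 and 9.27 in RA siRNF20 arrays and 8.85 in the RA siLacZ array, against 8.27 and 8.74 in DMSO siRNF20 arrays and 8.24 and 8.53 in DMSO siLacZ arrays. Each RA array was above each DMSO array. The difference was 0.60 in siRNF20 cells (95% interval 0.13 to 1.07, adjusted p = 0.183) and 0.47 in siLacZ cells (-0.11 to 1.04, adjusted p = 0.426), which did not pass. Of its 43 rows used 42 had a positive difference in siRNF20 cells and 39 in siLacZ cells. With all 8 arrays the sign in siLacZ cells turned, to -1.23.

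FGFR3, a receptor that restrains growth of cartilage, had 8.61 and 8.43 in RA siRNF20 arrays and 8.27 in the RA siLacZ array, against 7.98 and 8.21 in DMSO siRNF20 arrays and 8.44 and 8.26 in DMSO siLacZ arrays. Its difference was 0.42 in siRNF20 cells (95% interval 0.03 to 0.82, adjusted p = 0.283) and -0.08 in siLacZ cells (-0.57 to 0.40, adjusted p = 0.910). FGFR4, the receptor that serves FGF19 in liver, had 7.59 and 7.69 in RA siRNF20 arrays and 8.08 in the RA siLacZ array, against 7.56 and 7.61 in DMSO siRNF20 arrays and 7.71 and 7.40 in DMSO siLacZ arrays. Here the single RA siLacZ array was the highest of the 7, and the difference was 0.06 in siRNF20 cells (95% interval -0.35 to 0.48, adjusted p = 0.933) and 0.53 in siLacZ cells (0.02 to 1.04, adjusted p = 0.289).

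**Figure D2:**
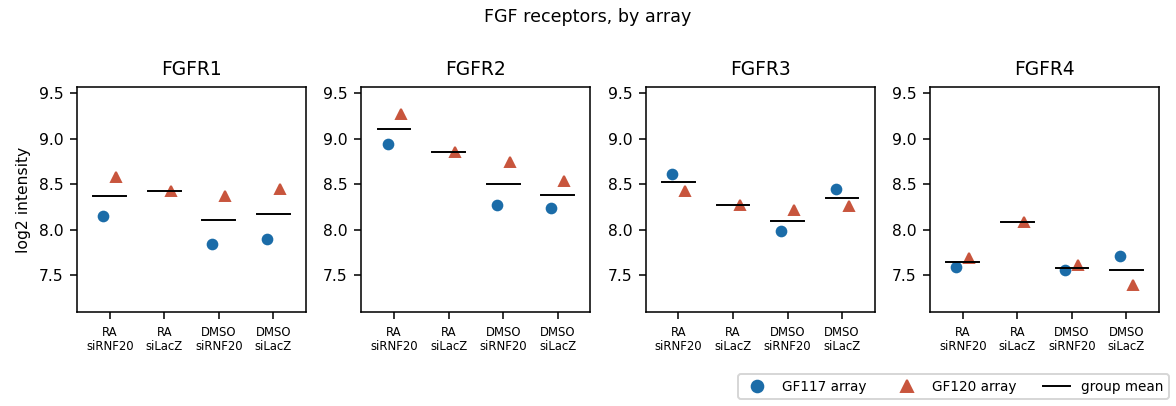
Log2 intensity (vertical axis, the same in all panels) of FGFR1, FGFR2, FGFR3 and FGFR4 on each of the 7 arrays, by group; circles are GF117 arrays, triangles GF120 arrays and lines group means. FGFR2 is at 8.85 to 9.27 in RA arrays and at 8.24 to 8.74 in DMSO arrays, while the RA and DMSO arrays overlap for the other receptors.

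FGFRL1, a receptor without a kinase domain, and the co-receptors KL (for FGF23) and KLB (for FGF19 and FGF21) differed by -0.03, -0.27 and 0.03 in siRNF20 cells and by 0.36, -0.02 and -0.36 in siLacZ cells. KL kept 6 of 14 rows and KLB 8 of 18, so that both were largely dim.

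Among the feedback genes SPRY2, SPRY4 and IL17RD fell with both siRNAs, SPRY1 fell in siRNF20 cells, and DUSP6 rose with both. SPRY1, SPRY2 and SPRY4 encode Sprouty proteins, which hold back RAS and ERK downstream of receptor tyrosine kinases. Since these genes and DUSP6 moved in opposite directions, the 250 bases before a listed start are shown for all 4, from RefSeq (GRCh38.p14), in the direction of the gene. For SPRY1 and SPRY2, which have several listed starts, the window shown was picked because it holds the marked motif. Their other windows did not hold it. Capitals mark CCGGAA, a single form of the site bound by ETS factors, which ERK acts on. Other forms of this site were not searched, so that an unmarked window can hold them. A link between the motif and the direction of change was not tested.
SPRY1, chr4:123398136-123398385, + strand: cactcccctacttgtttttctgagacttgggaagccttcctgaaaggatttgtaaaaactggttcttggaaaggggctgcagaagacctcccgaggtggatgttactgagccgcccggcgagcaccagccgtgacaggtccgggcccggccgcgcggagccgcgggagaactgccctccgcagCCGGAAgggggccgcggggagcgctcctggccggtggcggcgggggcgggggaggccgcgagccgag
SPRY2, chr13:80341127-80341376, - strand: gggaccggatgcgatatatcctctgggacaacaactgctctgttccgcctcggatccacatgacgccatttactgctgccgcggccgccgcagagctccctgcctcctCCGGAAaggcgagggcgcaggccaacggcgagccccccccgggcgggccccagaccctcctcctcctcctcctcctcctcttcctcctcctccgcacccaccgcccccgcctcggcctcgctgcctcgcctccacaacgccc
SPRY4, chr5:142324248-142324497, - strand: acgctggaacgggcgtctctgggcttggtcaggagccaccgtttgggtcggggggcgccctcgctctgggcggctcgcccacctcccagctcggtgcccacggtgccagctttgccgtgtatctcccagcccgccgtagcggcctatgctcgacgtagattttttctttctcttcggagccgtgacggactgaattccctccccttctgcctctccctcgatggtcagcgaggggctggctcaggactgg
DUSP6, chr12:89352502-89352751, - strand: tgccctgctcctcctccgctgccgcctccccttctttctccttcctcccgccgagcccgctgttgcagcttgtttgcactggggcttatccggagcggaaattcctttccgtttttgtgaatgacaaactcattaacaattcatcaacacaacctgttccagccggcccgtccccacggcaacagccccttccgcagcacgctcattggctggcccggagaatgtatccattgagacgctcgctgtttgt

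Promoters were listed for 6 of the 7 genes called in either RA comparison, at 10 starts, and that of FGF4 was not used here. The search covered 5 motifs on both strands: CCGGAA (1 form of the ETS site), AGGTCA (the repeated unit of a retinoic acid receptor site), ATGCAAAT (the octamer that POU5F1 and its relatives bind), TGACTCA (the AP-1 site) and TATAAA (the TATA box). CCGGAA was found once in SPRY1 and once in SPRY2, each at 1 of several listed starts. It was present in 14.5% of all 35116 promoters of this length, and its matches among the 10 windows are near that share. The other motifs matched none of the 10 windows, so that no matches overlapped, and were present in 12.1%, 1.63%, 4.20% and 10.7% of all promoters in the order named. A match describes the letters only.

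SPRY4 had a log2 intensity of 5.35 and 5.17 in RA siRNF20 arrays and 5.001 in the RA siLacZ array, against 8.21 and 7.94 in DMSO siRNF20 arrays and 8.25 and 7.55 in DMSO siLacZ arrays. The RA arrays lay close together and far below the DMSO arrays. SPRY4 fell by 2.82 on the log2 scale in siRNF20 cells (SE 0.26, adjusted p = 0.000370), a 7.04-fold change, and fell by 2.9002 in siLacZ cells (SE 0.32, adjusted p = 0.00104), a 7.47-fold change. All 7 of its rows used had a difference below 0 in both comparisons.

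SPRY2 had 7.39 and 7.14 in RA siRNF20 arrays and 6.23 in the RA siLacZ array, against 9.18 and 9.09 in DMSO siRNF20 arrays and 8.98 and 8.88 in DMSO siLacZ arrays. The RA siLacZ array was lower than both RA siRNF20 arrays, while the 4 DMSO arrays lay close together. SPRY2 fell by 1.87 in siRNF20 cells (SE 0.17, adjusted p = 0.000381), a 3.65-fold change, and fell by 2.71 in siLacZ cells (SE 0.21, adjusted p = 0.000206), a 6.53-fold change. All 9 rows used were lower by more than 1 on the log2 scale in both comparisons. SPRY2 and SPRY4 kept their call in both comparisons under every alternative with 7 or fewer arrays, but the single RA siLacZ array could not be left out. With all 8 arrays the SPRY2 and SPRY4 differences in siLacZ cells were -3.14 (adjusted p = 0.282) and -3.02 (adjusted p = 0.161).

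SPRY1 had 7.53 and 7.47 in RA siRNF20 arrays and 7.70 in the RA siLacZ array, against 8.63 and 8.55 in DMSO siRNF20 arrays and 8.49 and 8.35 in DMSO siLacZ arrays, with no overlap. It fell by 1.09 in siRNF20 cells (SE 0.17, adjusted p = 0.00559), a 2.13-fold change, and its difference of -0.72 in siLacZ cells (SE 0.20, adjusted p = 0.0939) did not pass. In siRNF20 cells it no longer passed once the GF117 array of DMSO siRNF20 was left out (-1.05, adjusted p = 0.0734). The difference in siLacZ cells with all 8 arrays was -1.66 (adjusted p = 0.440).

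IL17RD, also called SEF, a membrane protein that binds FGF receptors and limits their signal, had 6.96 and 7.04 in RA siRNF20 arrays and 6.94 in the RA siLacZ array, against 8.59 and 8.53 in DMSO siRNF20 arrays and 8.73 and 8.21 in DMSO siLacZ arrays. The 3 RA arrays lay close together, below all DMSO arrays. IL17RD fell by 1.56 in siRNF20 cells (SE 0.20, adjusted p = 0.00258), a 2.95-fold change, and by 1.53 in siLacZ cells (SE 0.25, adjusted p = 0.00926), a 2.896-fold change. In siLacZ cells IL17RD no longer passed once the GF117 array of DMSO siLacZ was left out (-1.28, adjusted p = 0.0567) and with all 8 arrays (-2.75, adjusted p = 0.440).

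DUSP6 encodes a cytoplasmic phosphatase that switches off ERK, and it moved against the Sprouty genes. Its log2 intensity was 10.33 and 10.23 in RA siRNF20 arrays and 10.10 in the RA siLacZ array, against 7.98 and 6.89 in DMSO siRNF20 arrays and 8.03 and 6.62 in DMSO siLacZ arrays. The RA arrays lay close together, and in DMSO the GF117 arrays were above the GF120 arrays with either siRNA. DUSP6 rose by 2.84 in siRNF20 cells (SE 0.44, adjusted p = 0.00618), a 7.18-fold change, and by 2.77 in siLacZ cells (SE 0.54, adjusted p = 0.0216), a 6.84-fold change. In siRNF20 cells it was 2.35 within GF117 and 3.34 within GF120, and in siLacZ cells 3.48 within GF120. All 6 rows used were positive in both comparisons. In siLacZ cells DUSP6 no longer passed once the GF120 array of DMSO siLacZ was left out (2.07, adjusted p = 0.0613), with the mean over rows (adjusted p = 0.0603), with no intensity trend (adjusted p = 0.0710) and with all 8 arrays (1.23, adjusted p = 0.502).

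**Figure D3:**
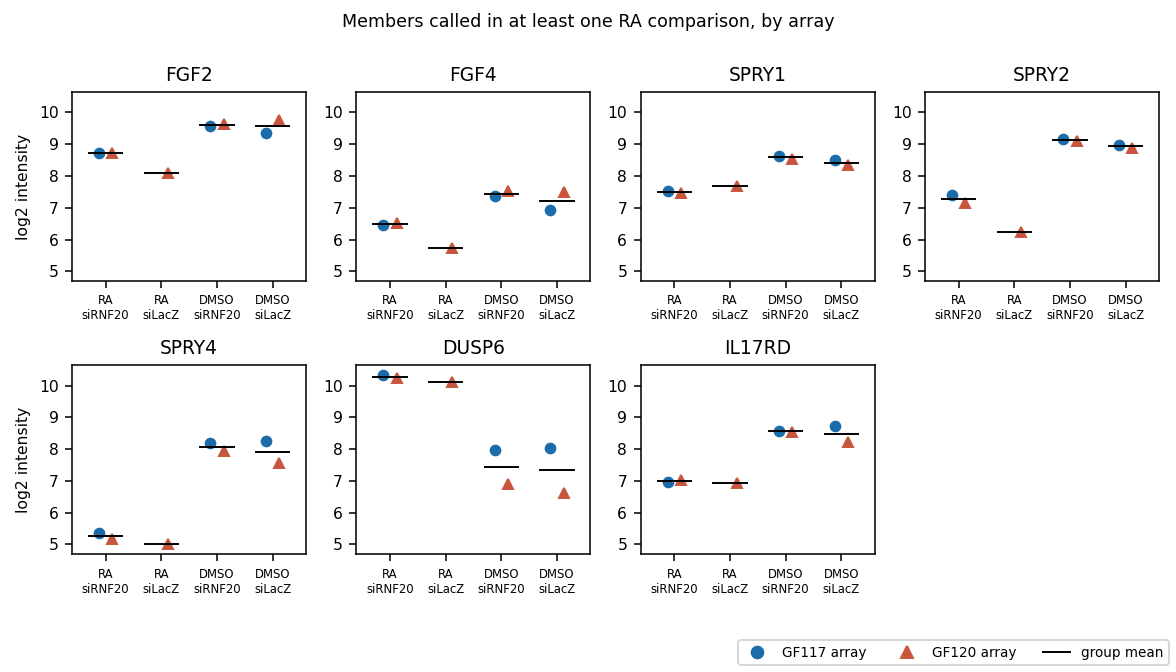
Log2 intensity (vertical axis, the same in all panels) on each of the 7 arrays, by group, of the 7 genes that passed in at least 1 RA comparison; circles are GF117 arrays, triangles GF120 arrays and lines group means. DUSP6 is at 10.10 to 10.33 in RA arrays and at 6.62 to 8.03 in DMSO arrays, and the other 6 genes are lower in every RA array than in every DMSO array.

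SPRED2 and SPRED1 encode membrane proteins that bring neurofibromin to RAS. SPRED2 had 7.76 and 7.78 in RA siRNF20 arrays and 7.62 in the RA siLacZ array, against 6.72 and 6.92 in DMSO siRNF20 arrays and 7.43 and 6.79 in DMSO siLacZ arrays. All RA arrays were above all DMSO arrays, but the GF117 DMSO siLacZ array came close. Its difference was 0.95 in siRNF20 cells (SE 0.23, adjusted p = 0.0594) and 0.51 in siLacZ cells (SE 0.29, adjusted p = 0.448), and that in siRNF20 cells passed once the GF117 or the GF120 array of DMSO siLacZ was left out (adjusted p = 0.0430 and 0.0441). SPRED1 differed by -0.28 and -0.44, and DUSP4, a nuclear phosphatase of MAP kinases, by 0.40 and 0.34 in siRNF20 and siLacZ cells, and neither passed.

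Rows of 1 gene did not always move alike. Of the 11 FGF2 rows used, 2 had a positive difference in siRNF20 cells and 1 in siLacZ cells, and 3 and 8 were lower by more than 1 on the log2 scale. FGF4 rows ran from -2.0004 to 0.18 in siRNF20 cells and from -3.04 to -0.16 in siLacZ cells, so that the gene value is a median of unlike rows. FGF19 rows ran from -3.28 to -0.44 in siRNF20 cells, with 5 of 7 lower by more than 1, although the gene median did not pass. Of the 24 IL17RD rows used 20 were lower by more than 1 in siRNF20 cells and 19 in siLacZ cells.

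**Figure D4:**
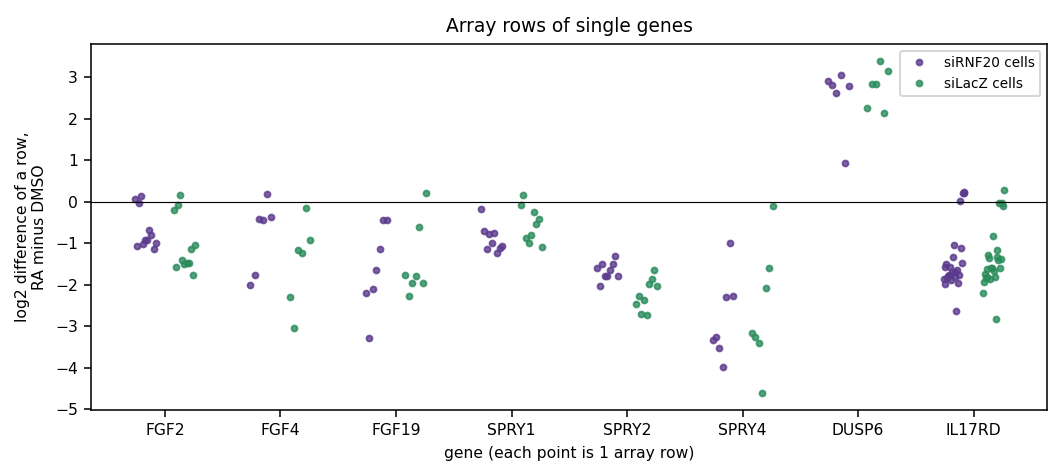
Each point is the log2 difference between RA and DMSO of 1 array row used (vertical axis), for the 7 genes that passed in at least 1 RA comparison and FGF19 (horizontal axis), in siRNF20 cells (purple) and siLacZ cells (green). The 9 SPRY2 rows lie between -2.03 and -1.31 in siRNF20 cells and between -2.74 and -1.64 in siLacZ cells, whereas FGF4 rows spread from -3.04 to 0.18.

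With siRNF20 none of the 36 genes passed the test in DMSO or in RA (limma, no block by GF number). With such a block SPRY2 passed in RA, as given at the end. The question was whether siRNF20 alters the FGF genes in DMSO or in RA. In DMSO 0 of 36 passed by limma (0% of all genes), and an unadjusted p below 0.05 was found for 0 of the 36 and 519 of all 18732 genes. Their median difference was 0.10, beside -0.01 for all genes. The highest differences were 0.78 for FGF9 (95% interval -0.39 to 1.94), 0.70 for FGF14 (-0.0004 to 1.39) and 0.60 for FGF6 (-0.16 to 1.36), and the lowest were -0.31 for FGF7 (-1.11 to 0.49), -0.30 for DUSP4 (-0.88 to 0.27) and -0.30 for SPRED2 (-0.82 to 0.23). FGF14 had 4.64 and 4.63 in DMSO siRNF20 arrays, against 4.01 and 3.86 in DMSO siLacZ arrays, near the limit for dim rows. FGF7 had 5.78 and 4.87 in DMSO siRNF20 arrays, against 5.34 and 5.92 in DMSO siLacZ arrays. For DUSP4 the values were 5.95 and 5.66 in DMSO siRNF20 arrays, against 6.41 and 5.80 in DMSO siLacZ arrays. The sign of the FGF9, FGF14, FGF6, FGF7, DUSP4 and SPRED2 values turned under at least 1 alternative.

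For the 7 genes called with RA, the differences between the siRNAs in DMSO were as follows. SPRY2 differed by 0.20 (95% interval -0.19 to 0.59), SPRY4 by 0.17 (-0.41 to 0.75), SPRY1 by 0.17 (-0.20 to 0.54), IL17RD by 0.08 (-0.37 to 0.54), FGF2 by 0.05 (-0.32 to 0.42), FGF4 by 0.24 (-0.28 to 0.75) and DUSP6 by 0.11 (-0.88 to 1.09). None of these intervals shows that the siRNAs act alike, and that of DUSP6 is the widest.

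In RA 0 of 36 genes passed between siRNF20 and siLacZ by limma, against 0.0107% of all genes, and 4 had an unadjusted p below 0.05, as did 1485 of 18732 genes. The comparison sets 2 arrays against 1 and shares arrays with those of RA against DMSO. The median difference of the 36 genes was 0.24, beside -0.01 for all genes. The highest was SPRY2 at 1.04 (95% interval 0.57 to 1.51, adjusted p = 0.168), followed by FGF10 at 1.03 (0.21 to 1.86, adjusted p = 0.526) and FGF23 at 0.95 (-0.06 to 1.96, adjusted p = 0.646). FGF10 had 5.25 and 5.41 in RA siRNF20 arrays, against 4.29 in the RA siLacZ array. FGF23 had 5.04 and 5.47 in RA siRNF20 arrays, against 4.31 in the RA siLacZ array. FGF4 and FGF2 were higher by 0.73 (0.10 to 1.37, adjusted p = 0.586) and 0.63 (0.17 to 1.08, adjusted p = 0.481), also without passing.

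The lowest differences between siRNF20 and siLacZ in RA were those of FGFRL1 at -0.51 (95% interval -1.10 to 0.09), FGFR4 at -0.44 (-0.95 to 0.07) and FGF3 at -0.26 (-1.28 to 0.76). FGFRL1 had 6.48 and 6.18 in RA siRNF20 arrays, against 6.83 in the RA siLacZ array. FGF3 had 4.95 and 5.58 in RA siRNF20 arrays, against 5.52 in the RA siLacZ array, within their spread. DUSP6, IL17RD and SPRY4 differed by 0.18, 0.06 and 0.26, and SPRY1 by -0.20. With all 8 arrays the median of all genes in this comparison was 0.43 and that of the 36 genes 0.46, and SPRY2 was not called.

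The RA response in siRNF20 cells minus that in siLacZ cells was called for 0 of 36 genes by limma, as for 0% of all genes (adjusted p = 0.999 for each of the 36). An unadjusted p below 0.05 was found for 1 of the 36, SPRY2, and for 737 of all genes. The difference of the responses on the log2 scale was 0.84 for SPRY2 (95% interval 0.23 to 1.45), 0.58 for FGF2 (-0.01 to 1.17) and 0.49 for FGF4 (-0.33 to 1.31). For SPRY4 it was 0.08 (-0.83 to 1.00), for DUSP6 0.07 (-1.49 to 1.62), for IL17RD -0.03 (-0.75 to 0.70) and for SPRY1 -0.37 (-0.95 to 0.22). A call of FGF4 or SPRY1 with 1 siRNA and not with the other is therefore not a shown difference between the siRNAs.

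Genes that ERK signalling is known to induce, listed apart from the feedback genes, were lower or not called with RA, 18 of 22 below 0 in siRNF20 cells and 17 of 22 in siLacZ cells, beside 10049 and 10361 of all 18732 genes. Of 22 such genes 7 fell and 0 rose in siRNF20 cells, and 4 fell and 0 rose in siLacZ cells, with medians of -0.48 and -0.46. Of all genes 2.13% were called lower in siRNF20 cells and 2.03% in siLacZ cells. MYC fell, with -2.06 in siRNF20 cells (adjusted p = 0.00289) and -2.67 in siLacZ cells (adjusted p = 0.00221). So did PHLDA1 (-2.03 and -2.71), the ETS factor gene ETV4 (-1.77 and -2.10) and the cyclin gene CCND1 (-1.47 and -1.81). FOS (-1.87, adjusted p = 0.0110), DUSP5 (-1.48, adjusted p = 0.00223) and ETV5 (-1.19, adjusted p = 0.0399) were called in siRNF20 cells. In siLacZ cells these 3 had -1.61, -0.84 and -1.12 and did not pass, and the difference between the responses was called for none of them. ETV4, which like the Sprouty genes is a common readout of FGF signalling, had 7.31 and 7.33 in RA siRNF20 arrays and 7.07 in the RA siLacZ array, against 9.19 and 8.98 in DMSO siRNF20 arrays and 9.27 and 9.07 in DMSO siLacZ arrays. The immediate early genes EGR1 and JUNB read higher without passing, at 0.41 and 0.48 in siRNF20 cells and 0.20 and 0.54 in siLacZ cells. Several of these genes, MYC and CCND1 among them, also answer other pathways.

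**Figure D5:**
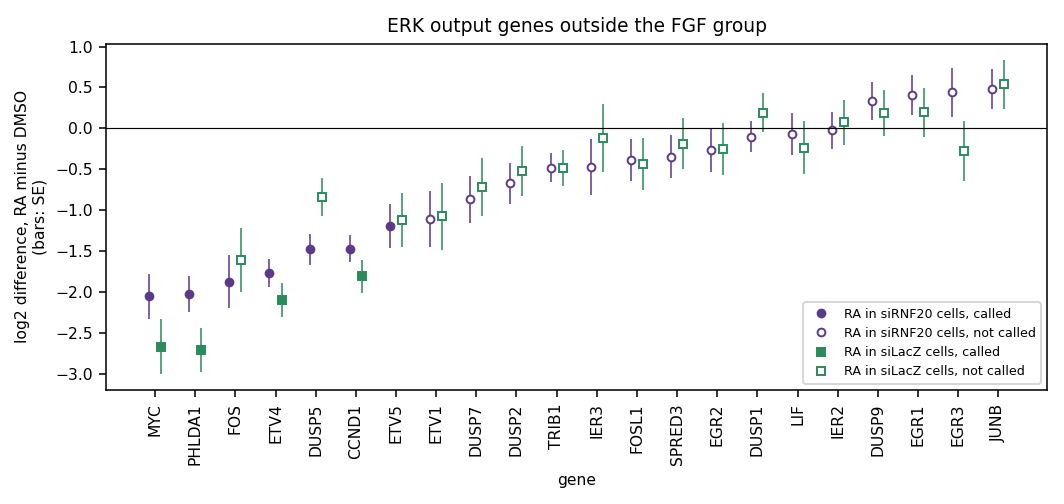
The log2 difference between RA and DMSO (vertical axis, bars 1 SE) of 22 genes known to be induced by ERK, ordered by their value in siRNF20 cells; circles are siRNF20 cells, squares siLacZ cells and filled symbols genes with an adjusted p below 0.05. MYC, PHLDA1, ETV4 and CCND1 are filled in both, at -2.06 to -1.47 in siRNF20 cells and -2.71 to -1.81 in siLacZ cells.

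Genes between receptor and ERK were read beside the 3.92% of all genes that passed in siRNF20 cells and the 3.91% in siLacZ cells. Of 10 measured genes of the RAS to ERK cascade 0 passed in siRNF20 cells and 2 in siLacZ cells, where the kinase gene MAP2K1 fell by 0.87 (adjusted p = 0.0414) and the ribosomal S6 kinase gene RPS6KA3 rose by 0.91 (adjusted p = 0.0394). In siRNF20 cells MAP2K1 had -0.40 and RPS6KA3 0.49, and neither passed. In siLacZ cells 0 cascade genes were called by limma once any 1 of the 4 DMSO arrays was left out, with no intensity trend or with all 8 arrays, and 3 without either RA siRNF20 array. Of 19 measured adaptors and regulators 1 rose and 1 fell in each comparison. FLRT3, a membrane protein that binds FGF receptors, rose by 1.26 in siRNF20 cells (adjusted p = 0.0406) and 1.93 in siLacZ cells (adjusted p = 0.0149). Its call in siRNF20 cells was lost without the GF117 array of RA siRNF20 or any 1 of the 4 DMSO arrays, with no filter on dim rows and with no intensity trend. In siLacZ cells it was lost without either DMSO siLacZ array. ANOS1, a secreted protein that modulates FGFR1 signalling, fell in siRNF20 cells (-2.01, adjusted p = 0.000367) and in siLacZ cells (-2.03, adjusted p = 0.00112). FRS2, the main FGF receptor adaptor, differed by 0.23 and 0.47 and did not pass.

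Of 28 genes of heparan sulfate and FGF-binding proteins, 2 rose in siRNF20 cells and 3 in siLacZ cells, and 0 fell. Of all genes 1.79% and 1.88% were called higher and 2.13% and 2.03% lower, so that 0 of 28 lower is near the background. GPC6, a glypican, rose by 1.31 in siRNF20 cells (adjusted p = 0.00175) and 1.90 in siLacZ cells (adjusted p = 0.000810), and HS6ST2, which adds 6-O-sulfate to heparan sulfate, by 1.95 (adjusted p = 0.000739) and 1.86 (adjusted p = 0.00317). SULF2, which removes those sulfates, rose by 1.33 in siLacZ cells (adjusted p = 0.00964) and had 0.64 in siRNF20 cells (adjusted p = 0.0926). The medians of the adaptors, the cascade and the heparan sulfate genes were 0.02, -0.06 and -0.02 in siRNF20 cells and 0.20, 0.01 and 0.08 in siLacZ cells, beside -0.03 and -0.05 for all genes.

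With siRNF20 against siLacZ, 0 genes of these 4 lists passed in DMSO or in RA by limma. In DMSO the extremes were 0.29 (SPRY3) and -0.47 (NF1) among the adaptors, 0.15 (MAP2K2) and -0.29 (MAPK3) in the cascade, 0.58 (MYC) and -0.50 (EGR3) among the ERK output genes, and 0.59 (FGFBP1) and -0.47 (NDST3) among the heparan sulfate genes. In RA they were 0.18 (GAB1) and -0.65 (FLRT3), 0.46 (MAP2K1) and -0.50 (RPS6KA3), 1.19 (MYC) and -0.85 (DUSP5), and 1.66 (NDST4) and -0.91 (SULF2). The median of the 19 adaptors and regulators in RA was -0.14, beside -0.01 for all genes. Of the 19, 17 were below 0 in RA and 14 in DMSO, beside 9537 and 9738 of all 18732 genes. All 19 differences in RA share the single RA siLacZ array, so that they are not independent.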

How the data were processed

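Expression was measured in NTera2/D1 cells on Affymetrix Human Exon 1.0 ST arrays, 1 array per sample. The deposited values are linear intensities, 1 per row (probe set) and array, and no source used here gives the authors' background correction, normalization or genome build. Of 1384231 rows 354600 carried 1 gene symbol in GEO's platform annotation. Rows listing several symbols (14898) or none were left out. Symbols were updated through older ones (2950 of 19497). The deposited intensities were not normalized again but turned into log2 values, only rows brighter than the median row were used, and a gene's value is the median of its rows.

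limma (version 3.58.1, R version 4.3.3, data.table version 1.17.8) fitted the 4 group means to 7 arrays with an intensity trend. Every adjusted p is limma's, two-sided, Benjamini-Hochberg over 18732 genes, called below 0.05, and intervals are 95%. The fit was tested on simulated data with noise independent between arrays. That test covered RA in siRNF20 cells alone and required only that known mean differences were recovered. Figures used Python 3.11.15 and matplotlib 3.10.9. The members, the related lists, the choice of 7 arrays and the tests were chosen with earlier results of these data known. Array values are given for genes called in any comparison, for the 3 highest and 3 lowest of the 36 in each pairwise comparison and for FGF2, FGF4, FGF8, FGFR1 to FGFR4, SPRY2, SPRY4 and DUSP6. FGF19 and FGF12 were added after their values were seen. No pairing by GF number was assumed, since the labels leave its meaning out. Alternatives were all 8 arrays, an offset of 16, the mean over rows, no filter, a filter at the 75th percentile, quantile normalization, no intensity trend, the GF number as a block, and each array left out. Some genes of the lists are not reported here. Promoters came from RefSeq (GRCh38.p14).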

Additional observations from a re-analysis of the deposited data

How the results depend on the processing

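Of the 12 called results of single FGF genes, the offset of 16 and quantile normalization changed none, and with all 8 arrays all 12 kept their direction and lost their call. SPRY2 and SPRY4 in both RA comparisons, DUSP6 and IL17RD in siRNF20 cells and FGF2 in siLacZ cells were called under every alternative with 7 or fewer arrays. In siLacZ cells the single RA array could not be left out. How far the calls of FGF2, SPRY2 and SPRY4 there rest on it was therefore not tested. With all 8 arrays 0 of the 36 genes and 0 of all genes were called in each comparison. Leaving out 1 array gave 4 to 8 FGF genes called with RA in siRNF20 cells and 5 to 6 in siLacZ cells, and 324 to 720 and 317 to 970 genes in all (324 and 371 without GF117 and GF120 of DMSO siRNF20, 317 and 389 without GF117 and GF120 of DMSO siLacZ). It gave 0 to 1 genes for siRNF20 in DMSO and 0 to 2 for siRNF20 in RA. The last count was 0 with the offset, the mean over rows, no filter, the stricter filter and quantile normalization, and 1 with no intensity trend, which also gave 456 genes with RA in siLacZ cells. The causes were not tested.

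With the GF number as a replicate block 11 of the 36 genes were called with RA in siRNF20 cells (1959 of all genes) and 7 in siLacZ cells (1792), 1 for siRNF20 in RA (232 of all genes), which was SPRY2 at 0.97 (adjusted p = 0.0294), and 1 and 4 of all genes for siRNF20 in DMSO and for the difference of the responses. Deviations of arrays with the same number correlated at 0.297 to 0.364 between the groups other than RA siLacZ. The genes it added were FGF4 (adjusted p = 0.00478), FGF12 (0.0387), FGF19 (0.0381), FGFR2 (0.0114) and SPRED2 (0.00947) with RA in siRNF20 cells, and SPRY1 (-0.67, 0.0358) with RA in siLacZ cells. With RA in siLacZ cells it called 7 ERK output genes, 4 adaptors and regulators and 5 heparan sulfate genes, against 4, 2 and 3 without it, and it called 2 cascade genes with RA in siRNF20 cells, against 0. The block turned FGFR1 with RA in siLacZ cells (-0.0013), and in the difference of the responses SPRY4 (-0.11) and DUSP6 (-0.37).

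Signs turned for genes that were not called. With RA in siRNF20 cells FGF8 had -0.39 with the stricter filter and -0.013 to 0.79 without 1 array, and FGFR1 -0.0056 to 0.52. With RA in siLacZ cells FGF6 had -0.10 (no filter) and -0.51 (stricter filter), FGF8 -1.21 (8 arrays), -0.17 (mean), -0.50 (no filter) and -0.044 (stricter filter), and FGFR3 0.0050 (stricter filter) and -0.18 to 0.019 without 1 array. With 8 arrays FGFR1 had -0.74, FGFR2 -1.23 and FGFR4 -0.064. For siRNF20 in DMSO FGF9 had -0.20 (no filter), -0.37 (stricter filter) and -0.0096 to 1.56 without 1 array, FGF14 -0.10 (no filter), FGF6 -0.23 (mean), -0.47 (no filter) and -0.33 (stricter filter), and FGF7 0.37 (stricter filter) and -0.76 to 0.15 without 1 array. DUSP4 had 0.018 (mean), 0.012 (no filter) and -0.61 to 0.00038 without 1 array, and SPRED2 -0.59 to 0.024. For siRNF20 in RA FGF3 had 0.29 (mean), 0.56 (no filter), 0.32 (stricter filter) and -0.57 to 0.058 without 1 array, and FGFR4 0.15 with 8 arrays. In the difference of the responses SPRY4 had -0.20 (mean), -0.20 (no filter), -0.25 (stricter filter) and -0.27 to 0.43 without 1 array, DUSP6 -0.26 (mean), -0.38 (no filter) and -0.64 to 0.77, and IL17RD 1.19 (8 arrays) and -0.29 to 0.23. SPRY1 had 0.57 with 8 arrays.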
